A study of Mus musculus with 102 samples.

Results

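The comparison set epidermal stem cells of old mice against those of younger adult mice at a single time of day, ZT0, on control diet. It used 8 of the 102 arrays of the series, chosen from the labels alone as every control diet array at time point T0: 4 arrays from mice aged 83 to 97 weeks, called aged here, and 4 from mice aged 47 to 57 weeks, called adult. Each of the 8 arrays came from Per1-Venus BAC transgenic mice on a C57B6/J background that ate the control diet ad libitum. The feeding experiment ran for 25 weeks after 3 weeks of adaptation, so the groups had begun it at 55 to 69 and at 19 to 29 weeks of age. The series also holds 5 further time points and a calorie-restricted diet (CR, 30% less food), which served here only to show where ZT0 on control diet differed. ZT (zeitgeber time) counts hours from lights on, and the series text plans 4 mice per time point and diet group, with 1 mouse of each diet group collected per day.

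No label ties an array to a collection day or to its own mouse. The p-values below therefore measure a spread between arrays, and age cannot be told apart from collection day. In the main model that spread was pooled over the 24 groups of all 102 arrays. It is not the spread of the compared arrays alone. How the cells were isolated is not given in the sources used here, and neither is sex. Total RNA (25 ng) was amplified over 17 cycles before hybridisation to an Affymetrix array, and levels are log2 values normalised by RMA, on which 1 unit is a doubling.

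Epidermal stem cells lie in the basal layer of the interfollicular epidermis and in the hair follicle. They divide to renew themselves and to supply the keratinocytes that move up, differentiate and cornify. Their circadian clock, a feedback loop in which Clock and Arntl drive the Per and Cry repressors, sets the daily timing of DNA replication and of oxidative metabolism, and the question here was how old and adult cells compared at lights on.

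The arrays carried the markers of basal keratinocytes. Krt14, the basal keratin, read 12.52, 12.51, 12.54 and 12.49 in aged replicates 1 to 4, and 12.44, 12.44, 12.49 and 12.53 in adult replicates 1 to 4. Krt5, its partner, read 12.30 to 12.39 in the aged arrays and 11.99 to 12.49 in the adult arrays. Both stood near the top of the array's scale, which ended at 13.07, and neither separated the ages. Mean levels of the marker lists of T cells, fibroblasts, endothelium, adipocytes and mast cells lay between 4.58 and 5.92 in all 8 arrays. Genes below 4.74 were left untested, and the median level of all genes tested was 6.94. T cell means were the highest of these lists, at 5.36 to 5.92, and 12 members were tested. Suprabasal and upper hair follicle markers had means of 9.01 to 9.59 and 8.69 to 9.55. Xist stood above the Y-linked genes in replicates 2 and 4 of both groups and below them in replicates 1 and 3, so the groups held equal numbers of each kind.

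The adult arrays differed among themselves, and this touches every result below. Adult replicate 1 had the lowest correlation with the median array of all 102 arrays (r = 0.894), adult replicates 2 and 4 had 0.961 and 0.962, and adult replicate 3 had 0.982. The 4 aged arrays had 0.982 to 0.988. Against the aged mean, 2217 genes lay more than 1 log2 unit away in adult replicate 1, 414 in replicate 2, 41 in replicate 3 and 472 in replicate 4. The 3′ minus 5′ signal of the Gapdh control probe sets, a measure of RNA integrity and of amplification, was 1.00 in adult replicate 1, the highest of the series, and 0.63 in adult replicate 2, against −0.01 to 0.22 in the other 6 arrays. The median SD of a gene was 0.362 over the adult arrays, the largest of the 24 groups of the series. It was 0.123 over the aged arrays, the second smallest. Because the main model pooled the spread over all groups, its SEs and p-values can be too small. They do not carry the full spread of the adult arrays. The part of this spread in the differences below was not tested, beyond leaving arrays out and the alternative array weights, background and scaling given near the end.

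**Figure D1:**
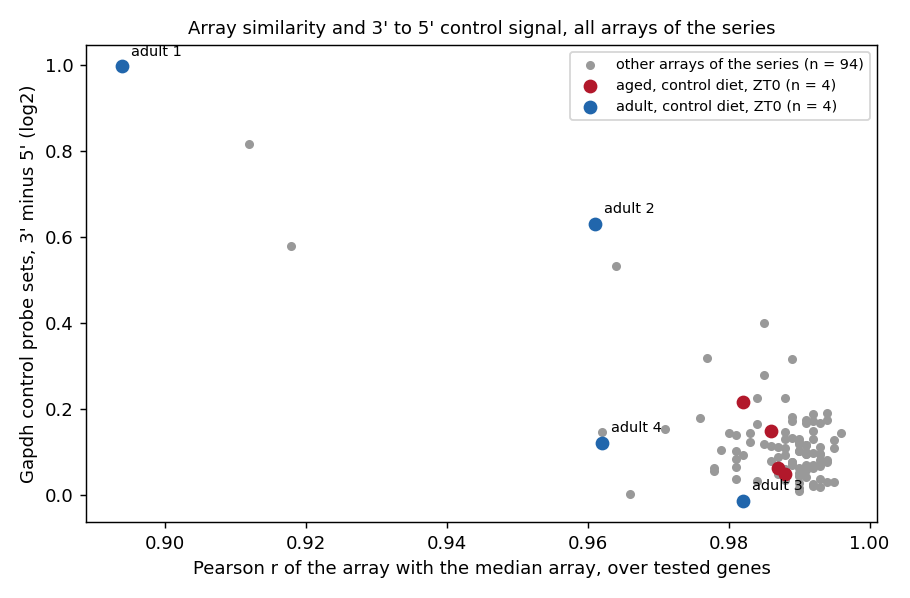
Each point is 1 of the 102 arrays, with its Pearson correlation with the median array across tested genes on the x axis and the 3′ minus 5′ difference of the Gapdh control probe sets (log2) on the y axis. Adult replicate 1 lies farthest toward the upper left (0.894 and 1.00), followed by aged control diet ZT4 replicate 2 (0.912 and 0.815) and aged CR ZT0 replicate 4 (0.918 and 0.579), while the 4 aged arrays lie among the bulk of the series at 0.982 to 0.988.

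A total of 6 genes differed between the ages at an adjusted p under 0.05 (limma with Benjamini-Hochberg adjustment over 13383 genes), which is 0.0448% of the genes tested. Fbxw9, Antkmt, C2cd4b and Lsm7 rose in the aged cells (0.0299%), by 0.56 to 1.09 log2 units. Zdhhc13 and Dcbld2 fell (0.0149%). None of the 6 passed without adult replicate 1, although each kept its direction. With only the compared arrays in the model, no gene passed. The number past the threshold was 0 or 1 when any single aged array or adult replicate 2 was left out, 867 without adult replicate 4 and 1941 without adult replicate 3, the adult array nearest the aged group.

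Fbxw9 encodes an F-box protein with WD repeats, of the kind that brings substrates to ubiquitin ligases. It read 8.12, 7.90, 8.06 and 7.97 in aged replicates 1 to 4, and 7.33, 7.39, 7.75 and 7.32 in adult replicates 1 to 4. Every aged array lay above every adult array. The difference was 0.56 ± 0.11 (SE), or 1.48-fold, with a limma adjusted p of 0.0231, and it was 0.52 without adult replicate 1 (adjusted p = 0.383). A second, dimmer probe set of the gene differed by 0.15.

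Antkmt, which encodes a lysine methyltransferase of the mitochondrial adenine nucleotide carrier, had the largest of the 6 differences. Its aged levels were 8.64, 8.88, 8.90 and 8.75, and its adult levels were 6.54, 7.43, 8.67 and 8.16. Adult replicate 3 lay within the aged range while adult replicates 1 and 2 lay more than 1 log2 unit below it. The difference was 1.09 ± 0.23 (SE; limma adjusted p = 0.0385) with all 8 arrays and 0.71 (adjusted p = 0.934) without adult replicate 1.

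C2cd4b, a gene of the C2cd4 family of nuclear proteins, read 7.57, 7.38, 7.58 and 7.49 in the aged arrays against 6.66, 6.68, 7.05 and 7.11 in the adult arrays. The groups did not overlap. At 0.63 ± 0.13 (SE; limma adjusted p = 0.0385), its difference moved little without adult replicate 1 (0.56), but its adjusted p did (0.538).

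Lsm7 encodes a subunit of the Lsm ring, which binds RNA in splicing and in mRNA decay. Aged arrays gave 7.99, 8.10, 8.34 and 8.13, and adult arrays gave 6.94, 7.49, 7.71 and 7.81. Again no adult array reached the aged range. The difference of 0.66 ± 0.14 (SE; limma adjusted p = 0.0437) came down to 0.47 without adult replicate 1 (adjusted p = 0.883).

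Zdhhc13 encodes a palmitoyltransferase whose loss in mice disturbs hair and skin. It read 7.78, 7.57, 7.48 and 7.69 in the aged arrays, and 8.72, 8.16, 7.71 and 8.43 in the adult arrays. Adult replicate 3, at 7.71, was the only adult array inside the aged range. The fitted change was −0.62 ± 0.13 (SE; limma adjusted p = 0.0385) and, without adult replicate 1, −0.47 (adjusted p = 0.826).

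Dcbld2, a transmembrane receptor-like protein, read 7.34, 7.13, 7.24 and 7.28 in the aged arrays, and 9.31, 7.87, 7.67 and 7.65 in the adult arrays. All adult arrays were higher, replicate 1 by far. The change was −0.88 ± 0.20 (SE; limma adjusted p = 0.0496), and it was −0.49 (adjusted p = 0.994) without that array. A second, dimmer probe set differed by 0.11 in the other direction.

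**Figure D2:**
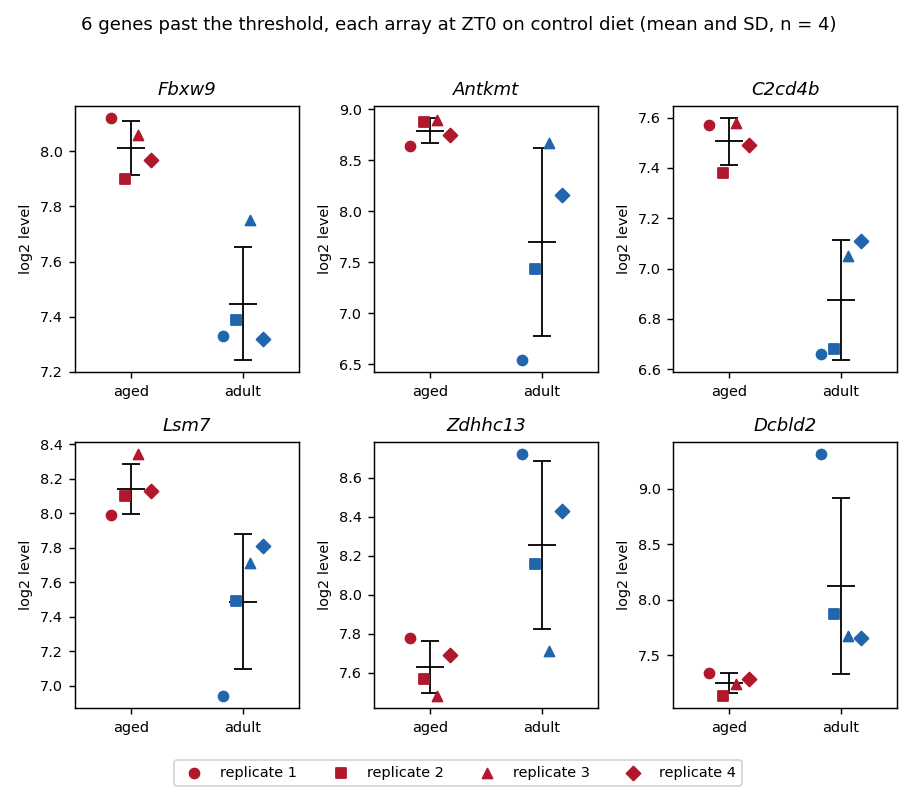
Log2 levels of the 6 genes past the threshold in each of the 4 aged (red) and 4 adult (blue) arrays, with a marker shape per replicate number and the group mean and SD in black. The groups do not overlap for Fbxw9, C2cd4b, Lsm7 and Dcbld2, and adult replicate 3 (triangle) lies within the aged range for Antkmt and Zdhhc13.

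The genes next in order of p did not pass. Borcs6, a subunit of the complex that positions lysosomes, read 8.73, 8.69, 8.97 and 8.12 in the aged arrays and 5.45, 8.06, 8.20 and 6.33 in the adult arrays. Its difference was 1.62 ± 0.37 (SE; limma adjusted p = 0.0541), and adult replicates 1 and 4 were the low ones. Tuba1a, an alpha tubulin, was higher in every aged array (11.50 to 11.63) than in any adult array (10.52, 10.76, 11.49 and 11.49). Fkbp8, an immunophilin of the outer mitochondrial membrane, showed the same arrangement, with 9.34 to 9.52 in the aged arrays and 7.73, 8.80, 9.25 and 9.20 in the adult arrays. Gas8, a subunit of the dynein regulatory complex of cilia, and Slc39a3, a zinc importer, were also higher without overlap, by 0.48 and 0.56 (limma adjusted p = 0.0684 for each), but their second, dimmer probe sets differed by only 0.09 and 0.16. Mob2, Pygo2, a Wnt co-activator, and the aminopeptidase Npepl1 completed the 12 genes on the higher side, with differences of 0.77, 0.69 and 0.68 and overlapping groups. Without adult replicate 1 the differences were 1.10 for Borcs6, 0.32 for Tuba1a, 0.36 for Fkbp8 and 0.30 for Npepl1.

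On the lower side, Icosl, the ligand of a T cell costimulatory receptor, read 6.10, 6.16, 6.24 and 6.42 in the aged arrays and 7.62, 6.92, 6.61 and 6.81 in the adult arrays. The groups did not overlap, and the difference was −0.76 ± 0.18 (SE; limma adjusted p = 0.0684). A second Icosl probe set of almost equal brightness differed by only −0.08. Pik3r3, a regulatory subunit of phosphoinositide kinase, read 6.29, 6.05, 6.04 and 5.95 in the aged arrays and 6.72, 6.68, 7.38 and 6.18 in the adult arrays. Adult replicate 3, not replicate 1, was its farthest adult array. When adult replicates 1 and 4 were both left out, a choice made after the values were seen, Pik3r3 alone passed, at −0.95 (limma adjusted p = 0.00912).

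Several genes on the lower side gave unequal values from their probe sets. Med14, a Mediator subunit, differed by −0.65, −0.23 and 0.17 from its 3 probe sets. The splicing factor Cdc5l gave −0.57 and 0.07, and Ccdc127 gave −0.70 from its brightest probe set and 0.00 from the next. Rcor3, a corepressor, gave −0.57 and −0.74 from its brightest pair and 0.42 from the third. The other 4 genes of the lower side, Col4a4, H2-T24, Ddias and Fkbp15, had differences of −0.55 to −0.75, and their groups overlapped. A second, dimmer probe set gave 0.01 for Col4a4, −0.42 for Ddias and −0.24 for Fkbp15.

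Across all genes the differences leaned toward higher levels in the aged arrays. The median difference of the 13383 genes was 0.07, and 61.3% of them were above 0. An unadjusted p under 0.05 was reached by 2355 genes (17.6%), of which 1942 (14.5%) were higher and 413 (3.09%) were lower in the aged arrays. For 462 genes (3.45%) the groups did not overlap, with 396 (2.96%) higher and 66 (0.493%) lower in the aged arrays.

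Much of this count moved with adult replicate 1. Without it, 603 genes (4.51%) reached an unadjusted p under 0.05, and 481 of the 2355 were among them, all in the same direction. Adult replicate 1 was the adult array farthest from the aged mean for 78.3% of the 2355 genes, against 41.3% of all genes tested.

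The genes on the 2 sides differed in build and level. Those higher in the aged arrays at an unadjusted p under 0.05 had a median genomic span of 13.5 kb and a median level of 8.49, against 21.0 kb and 6.94 for all genes tested. The lower ones had a median span of 41.0 kb and a median level of 6.85 (spans from RefSeq, assembly GRCm38.p6). A second probe set above the filter was available for 910 of the higher and 191 of the lower genes. It pointed the same way in 77.1% of the higher and in 60.7% of the lower genes, against 60.4% of all 5144 genes with a second probe set. Its differences were smaller. The median absolute difference was 0.521 at the first and 0.233 at the second probe set for the higher genes, and 0.461 and 0.215 for the lower ones. Over all 5144 genes it was 0.195 and 0.169.

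Core clock genes come first, since ZT0 is a fixed point of the cycle. None of 18 passed the adjusted threshold, 1 was higher and 1 lower at an unadjusted p under 0.05 (11.1%, against 17.6% of all genes), and their median difference was 0.07, as it was over all genes. Arntl, the activator, read 9.74, 8.61, 9.30 and 8.77 in the aged arrays and 8.97, 9.44, 9.34 and 8.66 in the adult arrays. These 8 values all lay above its series mean of 8.17, and the difference was 0.00 ± 0.46 (SE). Nfil3, a repressor whose level follows the same phase, was at 9.04 to 9.33 and 8.69 to 9.45.

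The genes of the opposite phase were low in both groups. Dbp, an output transcription factor, read 5.72 to 6.07 in the aged and 5.41 to 5.87 in the adult arrays, below its series mean of 7.03. Per2, a repressor of the loop, read 5.82 to 6.05 and 5.58 to 6.19, below its series mean of 6.95. Neither separated the ages. Per1, whose promoter drives the Venus transgene of these mice, read 8.44, 8.77, 8.05 and 8.11 against 7.87, 9.03, 7.71 and 7.02, a difference of 0.43 ± 0.24 (SE; limma adjusted p = 0.332).

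The clock genes with an unadjusted p under 0.05 were Hlf and Per3. Hlf, a PAR-domain output factor, read 8.69, 8.60, 8.32 and 8.28 in the aged arrays and 7.24, 7.73, 8.37 and 8.28 in the adult arrays (difference 0.57, limma adjusted p = 0.115). Per3 read 5.72, 5.85, 6.14 and 5.66 in the aged and 7.68, 6.88, 5.93 and 6.19 in the adult arrays (difference −0.83, limma adjusted p = 0.152). In both genes adult replicates 1 and 2 stood away from the aged arrays, and adult replicates 3 and 4 lay in or next to the aged range. A second probe set of Per3, nearly as bright as the first, gave 0.59, and the second one of Hlf gave −0.23, so the direction of both depends on the probe set.

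DNA replication genes lay mostly higher in the aged arrays. Of 23 tested, 22 were above 0 (95.7%, against 61.3% of all genes), and the median difference was 0.20 against 0.07. None passed the adjusted threshold, and 3 (13.0%) reached an unadjusted p under 0.05. Lig1, the ligase that joins Okazaki fragments, read 8.62, 8.81, 8.75 and 8.76 in the aged arrays and 6.90, 7.74, 8.77 and 8.27 in the adult arrays. Gins2, a subunit of the replicative helicase, read 8.38, 8.47, 8.43 and 8.66 against 7.70, 7.43, 8.32 and 8.44, and Rfc4, a clamp loader subunit, differed by 0.52 (0.20 without adult replicate 1). Adult replicate 3 was at, near or above the aged level in these genes, and adult replicates 1 and 2 were below it. The median was 0.16 without adult replicate 1, when no member reached an unadjusted p under 0.05. Of 21 mitosis genes none reached an unadjusted p under 0.05, and their median was 0.07.

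Among DNA repair genes, 4 of 18 were higher at an unadjusted p under 0.05 (22.2%, against 17.6% of all genes) and none passed. Their median difference was 0.22 with all arrays and 0.01 without adult replicate 1, when 1 member kept an unadjusted p under 0.05. Ogg1, the glycosylase that removes oxidised guanine, was the 1 member without overlap. Its levels were 6.70, 6.66, 6.50 and 6.55 in the aged arrays and 6.18, 6.32, 6.06 and 5.94 in the adult arrays. Here adult replicate 1 was not the lowest, and the difference was 0.48 with it (limma adjusted p = 0.131) and 0.50 without it. Fanca, of the Fanconi anaemia pathway, differed by 0.45, and by 0.25 without adult replicate 1. It read 7.36, 7.38, 7.49 and 7.24 in the aged arrays and 6.33, 7.30, 7.42 and 6.63 in the adult arrays. Without adult replicates 1 and 4 its difference was 0.008.

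Genes of p53 and cell cycle arrest gave 4 of 15 higher at an unadjusted p under 0.05 (26.7%, against 17.6% of all genes) and none past the threshold. Without adult replicate 1 only 1 of the 15 reached an unadjusted p under 0.05, against 4.51% of all genes, and the list median went from 0.18 to 0.08. Cdkn2b, an inhibitor of cyclin D kinases, was low on the scale and higher in every aged array, at 5.24, 5.50, 5.43 and 5.55 against 4.97, 4.70, 5.08 and 4.99. Its difference was 0.49 (limma adjusted p = 0.128), and 0.51 without adult replicate 1. Cdkn1a, an inhibitor induced by p53, read 11.71 to 11.83 in the aged arrays and 10.68, 11.50, 11.75 and 11.54 in the adult arrays. Its difference was 0.40 with adult replicate 1 and 0.17 without it. Of 8 secreted senescence factors tested, none reached an unadjusted p under 0.05. Cxcl1, the chemokine with the smallest p among them, read 5.82, 5.58, 6.05 and 5.83 against 5.13, 5.02, 5.66 and 5.02.

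Oxidative phosphorylation held the largest list median, 0.38. Of its 18 tested genes 17 were above 0 and 12 (66.7%, against 17.6% of all genes) reached an unadjusted p under 0.05, although none passed the adjusted threshold. Ndufb8, of complex I, read 10.45, 10.34, 10.46 and 10.58 in the aged arrays and 8.47, 9.44, 10.33 and 10.41 in the adult arrays. Cox4i1, of cytochrome c oxidase, read 11.28, 11.38, 11.32 and 11.45 against 8.35, 10.31, 11.35 and 11.31, and Sdha, of complex II, differed by 0.48. In each of the 3 the adult arrays split, with replicates 1 and 2 low and replicates 3 and 4 at or near the aged level. The mean level of the list was 10.33 to 10.49 in the aged arrays and 9.21, 9.92, 10.40 and 10.30 in the adult arrays. Without adult replicate 1 the median was 0.17, and only Cox5b, a subunit of cytochrome c oxidase, kept an unadjusted p under 0.05.

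Ribosomal protein genes had their lowest mean level in adult replicate 1, at 11.26, against 11.62 to 11.77 in the other adult arrays and 11.72 to 11.82 in the aged arrays. None of 10 tested passed, 5 were higher at an unadjusted p under 0.05 (50%, against 17.6% of all genes), and the median was 0.18, or 0.08 without adult replicate 1. Rps14 read 12.04 to 12.19 in the aged arrays and 10.47, 12.05, 12.04 and 12.09 in the adult arrays, so that replicate 1 alone stood low. Rpl3 was higher in every aged array, 12.28 to 12.36, than in any adult array, 11.87 to 12.27, but by 0.17, or 0.07 without adult replicate 1. Ribosome biogenesis genes were split, with 2 higher and 2 lower of 16 at an unadjusted p under 0.05 (25%).

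Of the stress lists, the antioxidant genes and NRF2 targets gave 4 higher and 1 lower of 18 at an unadjusted p under 0.05 (27.8%, against 17.6% of all genes). Txn1, thioredoxin, read 11.31, 11.34, 11.37 and 11.40 in the aged arrays and 9.83, 10.70, 11.38 and 11.31 in the adult arrays. Gpx4, the peroxidase that reduces lipid peroxides, was higher without overlap, at 10.01, 9.96, 10.07 and 10.26 against 9.26, 9.73, 9.67 and 9.93, a difference of 0.43 (limma adjusted p = 0.115) and 0.29 without adult replicate 1. Heat shock genes gave 2 of 10 (Dnajb1, a co-chaperone, by 0.41, and Hspe1, the mitochondrial co-chaperonin, by 0.90), with differences of 0.20 and 0.31 without adult replicate 1. Immediate early genes gave 3 higher and 1 lower of 20. The share was 20% in both lists, near that of all genes. Without adult replicate 1 the antioxidant list kept 1 such member and the heat shock and immediate early lists none. Ier2, among the latter, read 9.32 to 9.59 in the aged arrays and 6.98, 8.68, 9.50 and 9.04 in the adult arrays.

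Lysosomal and autophagy genes had a median of 0.19 against 0.07 over all genes, and 0.10 without adult replicate 1. At an unadjusted p under 0.05, 3 of 13 were higher (23.1%, against 17.6% of all genes). Lamp1, a membrane protein of the lysosome, had the smallest p of any list member. It read 10.97, 11.06, 10.96 and 11.02 in the aged arrays and 10.29, 10.78, 10.91 and 10.79 in the adult arrays, without overlap. The difference was 0.31 ± 0.08 (SE; limma adjusted p = 0.075), and 0.18 without adult replicate 1. Glucocorticoid targets had a median of 0.36, the second largest of the pathway lists, with 2 higher and 1 lower of 12 at an unadjusted p under 0.05 (25%). Nr3c1, the receptor itself, read 8.14, 8.45, 8.10 and 8.41 against 7.46, 7.91, 8.55 and 7.72. The list median was 0.21 without adult replicate 1 and no member then reached an unadjusted p under 0.05. Adult replicates 1 and 4 were both low, with list means of 7.85, 8.47, 8.44 and 7.91 in adult replicates 1 to 4 and 8.41 to 8.51 in the aged arrays. Without these 2 arrays, a choice made after the values were seen, the list median was 0.055, against 0.068 over all genes.

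**Figure D3:**
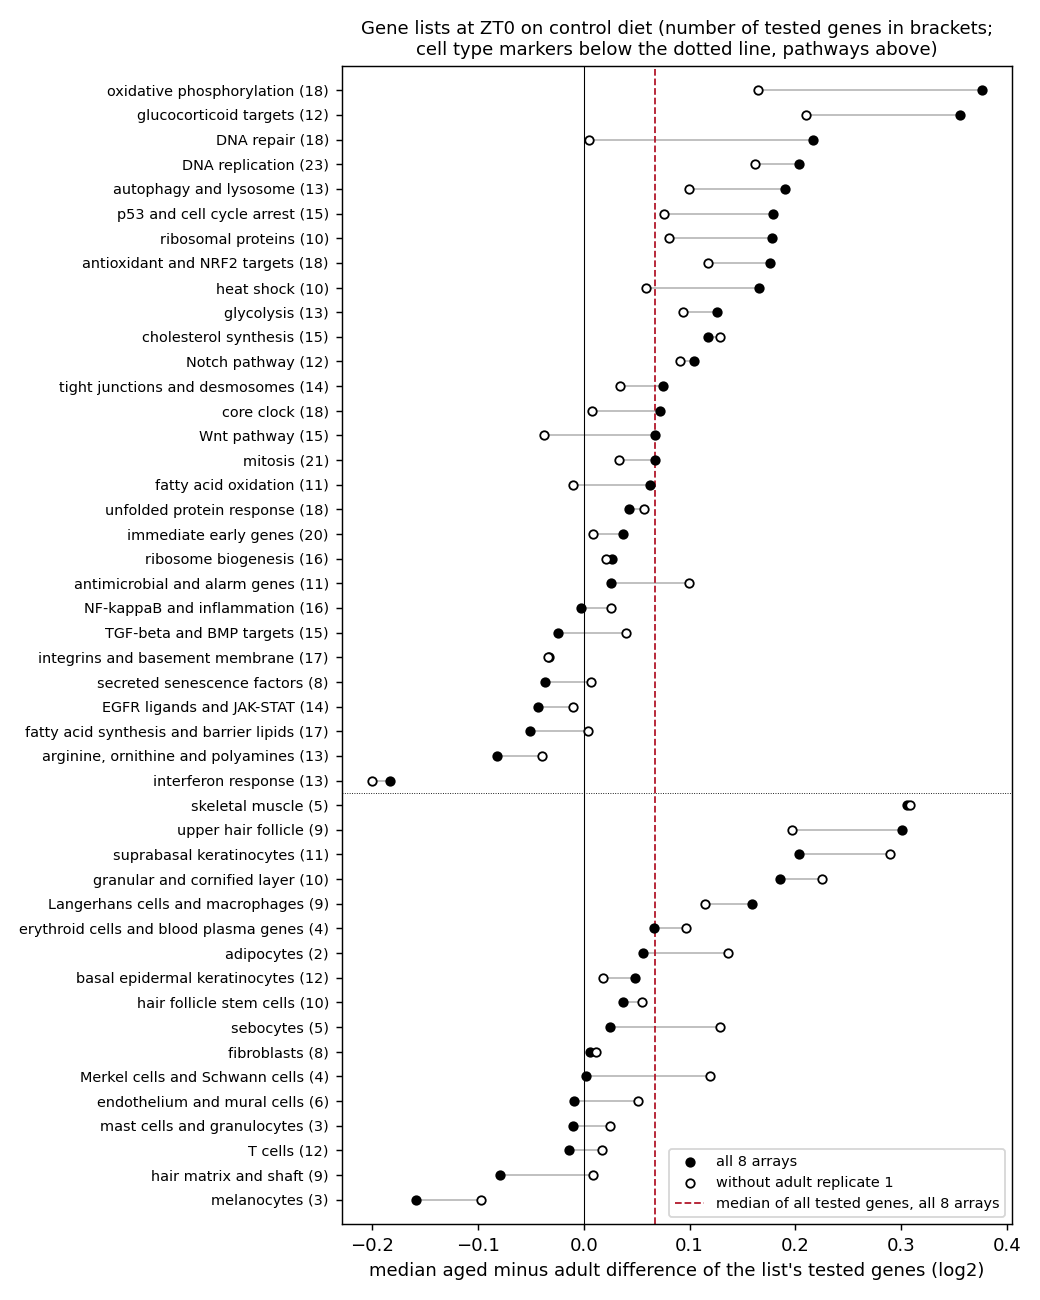
Median aged minus adult difference (log2) of the tested genes of each of 29 pathway lists (above the dotted line) and 17 marker lists (below it), with all 8 arrays (filled points) and without adult replicate 1 (open points). Oxidative phosphorylation goes from 0.38 to 0.17 and DNA repair from 0.22 to 0.01, while skeletal muscle goes from 0.30 to 0.31.

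Interferon response genes had the lowest pathway median, −0.18, and 1 higher and 1 lower member of 13 at an unadjusted p under 0.05 (15.4%, against 17.6% of all genes). Cxcl10, an interferon-induced chemokine, was lower in every aged array, at 5.84, 5.84, 5.86 and 6.13 against 7.53, 6.72, 7.15 and 6.41. Its difference was −1.03 ± 0.33 (SE; limma adjusted p = 0.103), and −0.84 without adult replicate 1. Psmb8, an immunoproteasome subunit, differed the other way by 0.91, which became 0.26 without adult replicate 1. The list median turned to 0.14 without adult replicate 2, so no direction can be given for the list. Of 16 NF-kappaB and inflammation genes none reached an unadjusted p under 0.05.

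Signalling and adhesion lists held members at an unadjusted p under 0.05 at shares near the 17.6% of all genes, or none. TGF-beta and BMP targets gave 3 of 15 (20%), led by Id1, an inhibitor of differentiation factors, at 8.13, 7.29, 8.21 and 7.80 in the aged arrays against 6.72, 6.72, 7.93 and 6.33 in the adult arrays. Its difference was 0.93 (limma adjusted p = 0.138) and 0.86 without adult replicate 1. Most members of that list went the other way, with 7 of 15 above 0 (46.7%, against 61.3% of all genes) and a median of −0.02. The Wnt pathway gave 3 of 15 (20%), the ligands Wnt16, Wnt10a and Wnt4, by 0.49, 0.43 and 0.41, which became 0.28, 0.14 and 0.20 without adult replicate 1. Integrin and basement membrane genes gave 3 of 17 (17.6%), all higher. Most of the list went the other way, with 7 of 17 above 0 (41.2%, against 61.3% of all genes) and a median of −0.03. Col7a1, the anchoring fibril collagen, read 9.73, 9.42, 9.84 and 9.19 against 7.07, 9.21, 9.62 and 8.60, and Lamb3, a laminin chain of the same membrane, differed by 0.70. Both had adult replicate 1 as the lowest array, and without it the differences were 0.40 and 0.26. Without adult replicates 1 and 4 they were 0.13 for Col7a1 and 0.25 for Lamb3. No member of the Notch, EGFR and JAK-STAT, or tight junction and desmosome lists reached an unadjusted p under 0.05.

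Markers of other cell layers and types moved with the groups in part. In such bulk samples fewer cells of a type and less RNA per cell cannot be told apart. Granular and cornified layer genes gave 3 of 10 higher at an unadjusted p under 0.05 (30%, against 17.6% of all genes) and none past the threshold. Lor, the main cornified envelope protein, read 7.01, 6.36, 6.12 and 9.54 in the aged arrays and 4.30, 5.20, 7.02 and 6.07 in the adult arrays. Lce1b, of the late cornified envelope, read 5.63, 5.51, 4.55 and 9.49 against 5.14, 4.77, 5.17 and 6.25. A single array, aged replicate 4, carried both, and it had the highest list mean, 7.31 against 6.11 to 6.39 in the other 7 arrays. Tgm1, the keratinocyte transglutaminase, was not led by that array, and read 6.15, 6.24, 6.49 and 6.35 against 6.31, 5.78, 5.98 and 6.06.

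Suprabasal genes gave 2 of 11 at an unadjusted p under 0.05 (18.2%, near the share of all genes), and none without adult replicate 1. Mt4, a metallothionein of differentiating squamous epithelium, read 9.12, 9.79, 10.17 and 9.60 in the aged arrays and 7.75, 8.51, 9.63 and 8.85 in the adult arrays. Their mean level was 9.45 to 9.59 in aged replicates 2 to 4, above 9.10 to 9.23 in the adult arrays, and 9.01 in aged replicate 1, below all of them. Basal keratinocyte genes had a median of 0.05, with 1 of 12 at an unadjusted p under 0.05 (8.33%). No hair follicle stem cell, upper hair follicle, hair shaft, sebocyte or melanocyte marker reached an unadjusted p under 0.05. The upper hair follicle list still had a median of 0.30, with 7 of 9 above 0 (77.8%, against 61.3% of all genes). Its array means overlapped, at 8.69 to 9.55 in the aged and 8.85 to 9.27 in the adult arrays. Without adult replicate 1 its median was 0.20, and 1 member reached an unadjusted p under 0.05.

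Skeletal muscle genes gave 4 of 5 tested members higher at an unadjusted p under 0.05 (80%, against 17.6% of all genes), and 3 without overlap (2.96% of all genes were higher without overlap), though all lay low on the scale and 3 further members were below the filter. Tnni2, a fast troponin, read 5.85, 5.71, 5.59 and 5.63 in the aged arrays and 5.30, 5.28, 5.21 and 5.49 in the adult arrays. Acta1, skeletal actin, read 5.22 to 5.41 against 4.96 to 5.09, and Mylpf, a myosin light chain, read 5.92 to 6.04 against 5.45 to 5.99. The median difference was 0.30, and 0.31 without adult replicate 1. Over the 8 members on the array the mean level was 5.11 to 5.22 in the aged and 4.88 to 5.08 in the adult arrays.

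Immune, stromal and vascular markers did not move together. The macrophage marker Adgre1, the cytotoxic lymphocyte gene Nkg7 and the endothelial Emcn were lower in the aged group, by −0.43, −0.41 and −0.42, at an unadjusted p under 0.05. In each, adult replicates 1 and 4 were the highest of the 8 arrays. Without those 2 arrays the differences were 0.03 for Adgre1, −0.10 for Nkg7 and 0.12 for Emcn, so no direction can be given for Adgre1 and Emcn. Their lists did not follow them: 7 of 9 tested Langerhans cell and macrophage markers were above 0, with a median of 0.16, as were 6 of 12 T cell markers (median −0.01) and 3 of 6 endothelial and mural markers (median −0.01). Sparc, listed with fibroblasts, was higher by 0.61, at 9.77 to 9.91 against 8.38, 8.95, 9.93 and 9.75, and by 0.32 without adult replicate 1. Over all of its 12 markers the fibroblast list had a mean level of 5.42 to 5.51 in the aged and 5.25 to 5.79 in the adult arrays, with 4 members below the filter in both groups.

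**Figure D4:**
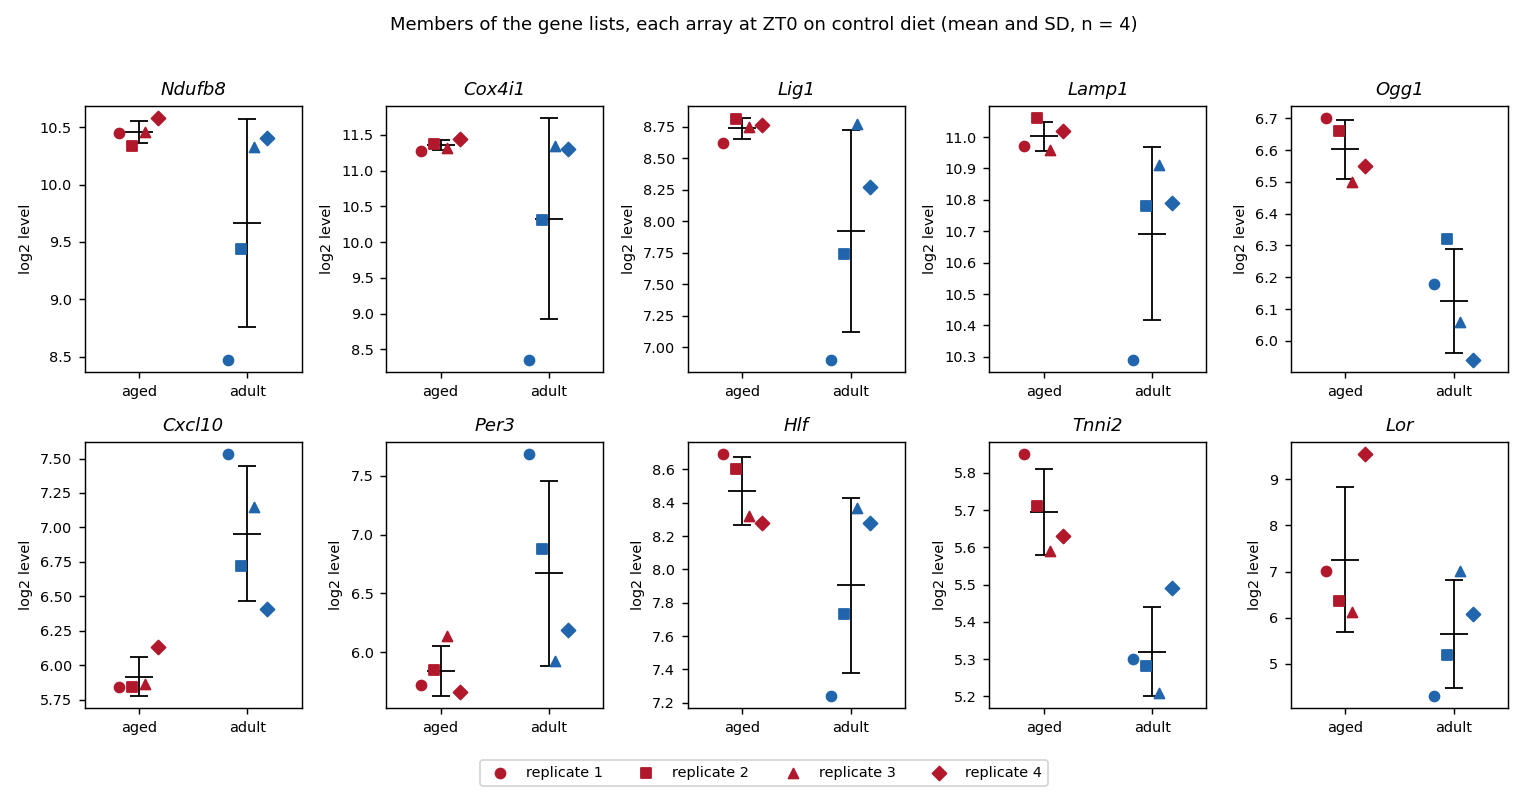
Log2 levels of 10 list members in each aged (red) and adult (blue) array, with a marker shape per replicate number and the group mean and SD (n = 4) in black. Ndufb8, Cox4i1 and Lig1 have adult replicates 1 and 2 low, Ogg1, Cxcl10, Lamp1 and Tnni2 separate the groups, and Lor is highest in aged replicate 4 at 9.54.

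Averaged over the other 5 time points, 0 of 13383 genes passed in limma (0%), and 186 (1.39%) reached an unadjusted p under 0.05. Of the 2355 genes with an unadjusted p under 0.05 at ZT0, 21.2% had the same direction in that average, against 37.4% of all genes. The difference of differences, ZT0 minus the average of the other times, was itself tested and passed for 6 genes (0.0448%), with 2428 (18.1%) at an unadjusted p under 0.05.

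The 6 genes past the threshold at ZT0 had mean age differences of −0.11 to 0.12 over the other times. Fbxw9 gave 0.56 at ZT0 and, over ZT4, ZT8, ZT12, ZT16 and ZT20, −0.32, −0.07, −0.11, 0.02 and −0.06, and the ZT0 value exceeded their mean by 0.67 (limma adjusted p = 0.00393). Antkmt gave 1.09, then −0.62, 0.08, −0.04, 0.18 and −0.09, an excess of 1.19 (limma adjusted p = 0.0401). C2cd4b and Lsm7 exceeded their other times by 0.68 and 0.72 (limma adjusted p = 0.0412 for each). Zdhhc13 and Dcbld2 lay below theirs by −0.69 and −1.0 (limma adjusted p = 0.0401 for each). These tests share the ZT0 arrays with the ZT0 comparison, and no gene passed without adult replicate 1. Leaving out 1 aged array gave 1 or 2 genes, and leaving out adult replicate 2, 3 or 4 gave 4, 1962 and 816. The largest value of opposite sign was at ZT4 for Fbxw9, Antkmt, Lsm7, Zdhhc13 and Dcbld2, where aged replicate 2 had the second lowest correlation with the median array of the series (0.912). Leaving that array out gave 6 genes again.

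**Figure D5:**
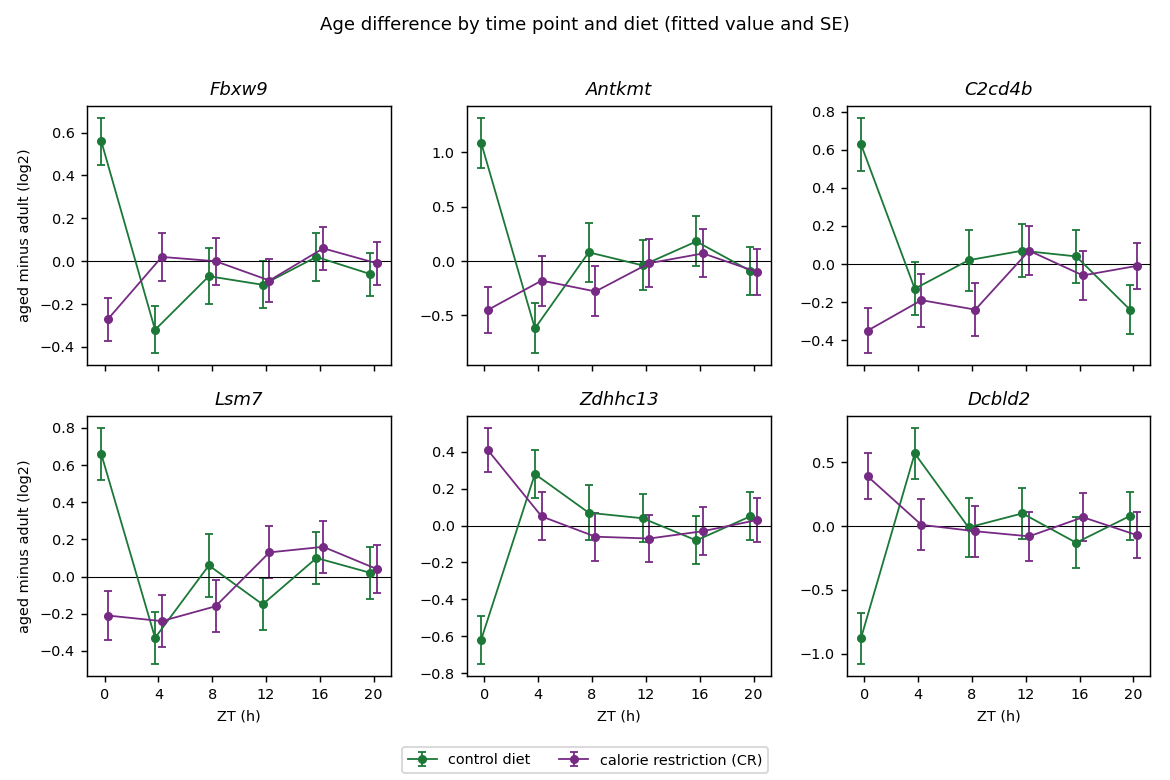
Fitted aged minus adult difference (log2, with SE) of the 6 genes past the threshold at each time point (ZT in hours), on control diet (green) and under CR (purple). On control diet ZT0 stands away from the other 5 times, and at ZT0 the CR value lies on the other side of 0 in all 6 genes.

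Under CR at ZT0 the age difference had the other sign in each of these 6 genes. Fbxw9 was at −0.27, Antkmt at −0.45, C2cd4b at −0.35 and Lsm7 at −0.21, and Zdhhc13 and Dcbld2 were at 0.41 and 0.39. None of these 6 passed under CR, where 2 genes did (0.0149%). Of the 2355 genes above, 5.99% had the same direction under CR, against 27.3% of all genes. Under CR the outlying arrays were on the aged side. Aged CR replicates 3 and 4 had Gapdh 3′ minus 5′ values of 0.53 and 0.58. Their correlations with the median array were 0.964 and 0.918. The adult CR arrays had Gapdh values of 0.04 to 0.32. The median SD of a gene was 0.309 over the aged CR arrays and 0.210 over the adult CR arrays. Their part in the change of sign was not tested.

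The difference between the diets was itself tested. The age difference on control diet exceeded or fell short of that under CR for 1195 genes (8.93%) at an adjusted p under 0.05, with 1008 (7.53%) more positive on control diet and 187 (1.4%) more negative. Smallest p belonged to Specc1, a coiled-coil protein of the cytoskeleton, whose age difference was −0.41 on control diet and 0.58 under CR (difference −0.99, limma adjusted p = 0.000134). Its age difference did not pass on control diet (limma adjusted p = 0.0875). Under CR it did (limma adjusted p = 0.00344), as 1 of the 2 genes that passed there. On control diet it read 6.86 to 7.0 in the aged arrays and 7.56, 7.52, 7.03 and 7.34 in the adult arrays. Zdhhc13 (−1.03), Fbxw9 (0.83), C2cd4b (0.98), the RNA-binding protein Hnrnpr (0.82) and Kctd2 (1.25) followed.

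Leaving out 1 array moved this count in both directions. It was 5 without adult control replicate 1, 136 without aged CR replicate 4, which had the third lowest correlation with the median array of the series (0.918), and 3 without both. Over the other arrays of the 4 groups left out singly it ran from 641 to 2556. The highest value, again without adult control replicate 3, was a larger move in number of genes than either of those, though not in ratio. With only the arrays of the 4 groups in the model, 0 genes passed and 1775 reached an unadjusted p under 0.05.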

How the data were processed

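Expression was measured on Affymetrix mouse arrays. The authors deposited log2 expression values normalised by RMA, per the submitters' processing notes; the genome build is not given in the sources used here. Of 45140 probe sets, 28898 carried 1 gene symbol, 551 several and 15691 none, and 103 of the probe sets were controls. The brightest probe set stood for each of 17097 genes, and 13383 genes with a mean of at least 4.735 (the 30th percentile of probe set means) were tested. The model (limma 3.58.1, R 4.3.3) gave each of the 24 groups a mean over all 102 arrays, with Benjamini-Hochberg adjustment at 0.05. It was run on simulated data with 200 changed genes. Those data had the same spread in every group and no outlying array. They could not show how the model handles the wider spread of the adult arrays. The number of arrays limits the precision. The text names the 12 genes of smallest p or largest change on each side, 6 per difference of differences, the core clock and the 3 of smallest p per list; Krt5, Krt14 and Cox5b, outside this rule, were chosen after their values were seen. The comparison and the lists were chosen with earlier results of these data known. Alternatives changed the arrays, covariates, scaling, filter, probe set rule and variance model.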

Additional observations from a re-analysis of the deposited data

Results flagged for a closer look

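Within groups of 4 arrays, 272 sets of values (85 genes, 46 list means and 5 array measures in each age) were examined for 1 array far from the other 3. A total of 15 were found, and chance alone marks about 1 set in 20. Adult replicate 1 was the array in 3 of them: Dcbld2 read 9.31 there against 7.65 to 7.87, Rps14 10.47 against 12.04 to 12.09, and the interferon response mean was 6.35 against 6.76 to 6.81. Adult replicate 3 was high for Fbxw9 (7.75 against 7.32 to 7.39), Mylpf (5.99 against 5.45 to 5.54) and the mean of mitosis genes (8.18 against 7.38 to 7.48). Adult replicate 4 was low for Acta1 (4.96 against 5.08 to 5.09). Among the aged arrays, replicate 4 was high for granular and cornified layer genes (7.31 against 6.30 to 6.39), Cxcl10 (6.13 against 5.84 to 5.86) and fibroblast markers (5.51 against 5.42). Aged replicate 1 was high for Lamb3 (11.16 against 10.87 to 10.91) and low for Mob2 (7.09 against 7.32 to 7.35) and for tight junctions and desmosomes (9.01 against 9.30 to 9.35). Aged replicate 2 was low for Specc1 (6.86 against 6.98 to 7.0) and for autophagy and lysosome genes (9.29 against 9.35 to 9.36).

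The age difference at ZT0 differed from the mean of the other times for 6 genes in the test of the difference: Fbxw9 (0.67), Antkmt (1.19), C2cd4b (0.68), Lsm7 (0.72), Zdhhc13 (−0.69) and Dcbld2 (−1.0). Between control diet and CR at ZT0 it differed for 1195 genes, led by Specc1 (−0.99), Zdhhc13 (−1.03), Fbxw9 (0.83), C2cd4b (0.98), Hnrnpr (0.82) and Kctd2 (1.25). These counts were 0 and 5 without adult control replicate 1.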

How the results depend on the processing

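Over 21 alternatives, each of the 6 genes past the threshold at ZT0 kept its direction, and each passed in 7 to 9 of them. The ranges were 0.35 to 0.66 for Fbxw9, 0.71 to 1.42 for Antkmt, 0.49 to 0.73 for C2cd4b, 0.47 to 0.76 for Lsm7, −0.81 to −0.30 for Zdhhc13 and −1.04 to −0.38 for Dcbld2. Their limma adjusted p ran from 1.57e-07 (Antkmt, with array weights) to 0.994 (Dcbld2, without adult replicate 1). The count of 6 at ZT0 was 0 with only the 8 arrays (627 at an unadjusted p under 0.05), 0 with only the control diet arrays (2056), 0 with array background as a covariate (2535) and 0 with an intensity trend and robust estimation (2357). It was 13 after quantile normalisation, with 4 higher and 9 lower and 2 of the 6 genes among them, 12 with the mean of all probe sets, and 1638 with array weights, whose estimation stopped before it converged. Without adult replicates 1 and 4 together, an alternative chosen after seeing the data, it was 1, and the count for ZT0 minus the other times was 0. Leaving out 1 array gave 0 to 1941 genes for ZT0, 0 to 1962 for ZT0 minus the other times, and 5 to 2556 for control diet minus CR. With only the arrays of the groups compared, both differences of differences gave 0 (2098 and 1775 at an unadjusted p under 0.05). Control diet minus CR gave 785 with each array centred on its median, and 3 without adult control replicate 1 and aged CR replicate 4 together, also chosen after seeing the data. The cause of these changes was not tested. The replicate numbers were not taken to pair the arrays. For this, each array's deviations from its own group's gene means were correlated between aged and adult arrays, not the levels themselves. Arrays of the same number gave 0.051, 0.099, 0.122 and 0.344, the first 2 under the 0.1 required. In these deviations aged replicates 1, 2 and 4 correlated best with their own number and aged replicate 3 with adult replicate 2 (0.329). With the replicate block 0 genes passed (848 at an unadjusted p under 0.05). The median difference kept its sign under all 12 alternatives for 19 of 46 lists, and 4 list values moved by more than the spread between arrays, among them interferon response (0.14 without adult replicate 2).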

Other observations

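In the lipid and sugar metabolism lists 0% to 18.2% of members reached an unadjusted p under 0.05, against 17.6% of all genes. Of 15 cholesterol synthesis genes 1 did. Fdps, which makes farnesyl diphosphate, read 7.75, 8.04, 8.61 and 8.44 in the aged arrays and 6.30, 6.98, 8.39 and 7.84 in the adult arrays. No gene did of 17 for fatty acid synthesis and barrier lipids, and 2 did of 11 for fatty acid oxidation: Eci1, an isomerase of unsaturated fatty acids (0.57), and Acadvl, the very long chain dehydrogenase (0.53). Without adult replicate 1 those values were 0.36 and 0.19. Glycolysis gave 1 of 13, Hk1, at 9.45 to 9.90 in the aged arrays and 7.68, 9.14, 9.99 and 9.50 in the adult arrays. Arginine, ornithine and polyamine genes gave 1 of 13, Asl, argininosuccinate lyase. Its difference was 0.65, or 0.40 without adult replicate 1 and 0.07 without adult replicates 1 and 4. The unfolded protein response gave 1 higher and 1 lower of 18. Haemoglobin Hba-a1, a marker of blood, read 7.66 to 8.25 in the aged arrays and 7.24 to 7.74 in the adult arrays. Its difference was 0.40, and 0.48 without adult replicate 1. The erythroid genes Alas2 and Slc4a1 differed by −0.14 and 0.10. None of the 4 tested erythroid and blood plasma genes reached an unadjusted p under 0.05, and 1 did without adult replicate 1. The list median was 0.07, as it was over all genes.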
